A study of Mus musculus with 4 samples.

Results

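Kinesins are motor proteins that walk along microtubules, and centromere proteins build the platform on each chromosome to which the spindle attaches. The set described here holds every gene of the expression tables whose symbol starts with Kif and a number or with Cenp and a letter, together with Kifc1, which was added by name. These are 61 of the 22488 listed genes. They fall into 12 mitotic kinesins, 28 other kinesins (transport motors and all remaining Kif rows) and 21 centromere proteins. Expression was measured by RNA sequencing of cultured mouse vascular smooth muscle cells, strain C57BL/6, passages 4 to 10. For 48 hours they carried either scramble siRNA, the control (2 libraries), or circEsyt2 siRNA, which by its name is aimed at circEsyt2, a circular RNA (2 libraries). No label gives the artery of origin, or whether the replicates of a group were grown as separate cultures. The p-values therefore speak of the spread among these 4 libraries, and that spread may be technical.

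In a dividing cell, kinesins push the spindle poles apart, carry and align chromosomes, and gather at the midzone where the cell divides. In all cells, other kinesins haul vesicles, mitochondria and ciliary cargo. The histone variant CENP-A marks the centromere, a network of further CENP proteins is assembled on it, and the outer kinetochore built on that network holds the microtubules. Transcripts of most mitotic kinesins and of many centromere proteins peak in G2 and M phase. In bulk samples, fewer cells of a type and less RNA per cell cannot be told apart.

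The depth of the scramble libraries was 2516428 and 4116791 assigned reads, and that of the circEsyt2 siRNA libraries 3765056 and 3127224. Values are FPKM, reads scaled by gene length and by the library's total of assigned reads. Of 8 smooth muscle markers, 7 were at 1 FPKM or more in every library, with the actin gene Acta2 at 829 to 1450 FPKM. Desmin (Des) was the exception, at 0.423 to 1.04 FPKM. The 8 markers summed to 1680 and 1700 FPKM with scramble siRNA and to 997 and 932 FPKM with circEsyt2 siRNA, so this sum moved with the groups. All 4 fibroblast markers were also at 1 FPKM or more in every library, summing to 568 and 507 against 431 and 491 FPKM. The first circEsyt2 siRNA library stood apart: 8 hepatocyte markers summed to 2950 FPKM there, against 12 and 3.73 in the scramble libraries and 89.0 in the second circEsyt2 siRNA library. Albumin (Alb) alone was at 2080 FPKM in that library. Macrophage, epithelial and erythroid marker sums were also highest there, at 29.3, 13.2 and 14.5 FPKM, against at most 5.92, 1.21 and 1.58 elsewhere. The endothelial sum was 3.31 and 3.66 FPKM against 8.33 and 6.35 FPKM. Much of that difference was the receptor Kdr, at 1.23 and 1.26 against 4.32 and 4.0 FPKM. Kdr was called higher (log2 fold change 1.20, limma adjusted p = 0.0303). Of the other endothelial markers, Pecam1, Tek and Vwf had overlapping groups. Cdh5 was at 1.51 and 0.636 against 2.27 and 1.52 FPKM and was not called. The part of these markers in the results was not tested.

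Of the 61 genes, 48 passed the filter of a mean of at least 1 FPKM over the 4 libraries and were tested. In limma with Benjamini-Hochberg adjustment over all 11290 tested genes, 6 of the 48 were lower with circEsyt2 siRNA and 0 were higher, at an adjusted p under 0.05. Those 6 were the mitotic kinesins Kifc1 and Kif20a, the transport motor Kif1a, the atypical kinesin Kif26b, the corona motor Cenpe and the inner kinetochore protein Cenpt. Over all tested genes 12.7% were called, 7.26% lower and 5.47% higher. The share called here, 12.5%, was thus near the background, while all 6 calls went down. No member was called higher by any of the alternative fits except Kif21b with voom on read numbers. At an unadjusted p under 0.05 there were 15 of 48 members, against 30.1% of all tested genes. The log2 fold change was negative in 33 of 48 members, against 49.8% of all tested genes. Both circEsyt2 siRNA libraries lay under both scramble libraries in 21 members, a pattern found in 31.1% of all tested genes. They lay over both in 10 members, found in 29.7% of all tested genes. Among these, Kif24 passed the filter through the scramble libraries, and Cenpp, Cenps and Cenpo through the circEsyt2 siRNA libraries.

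**Figure D1:**
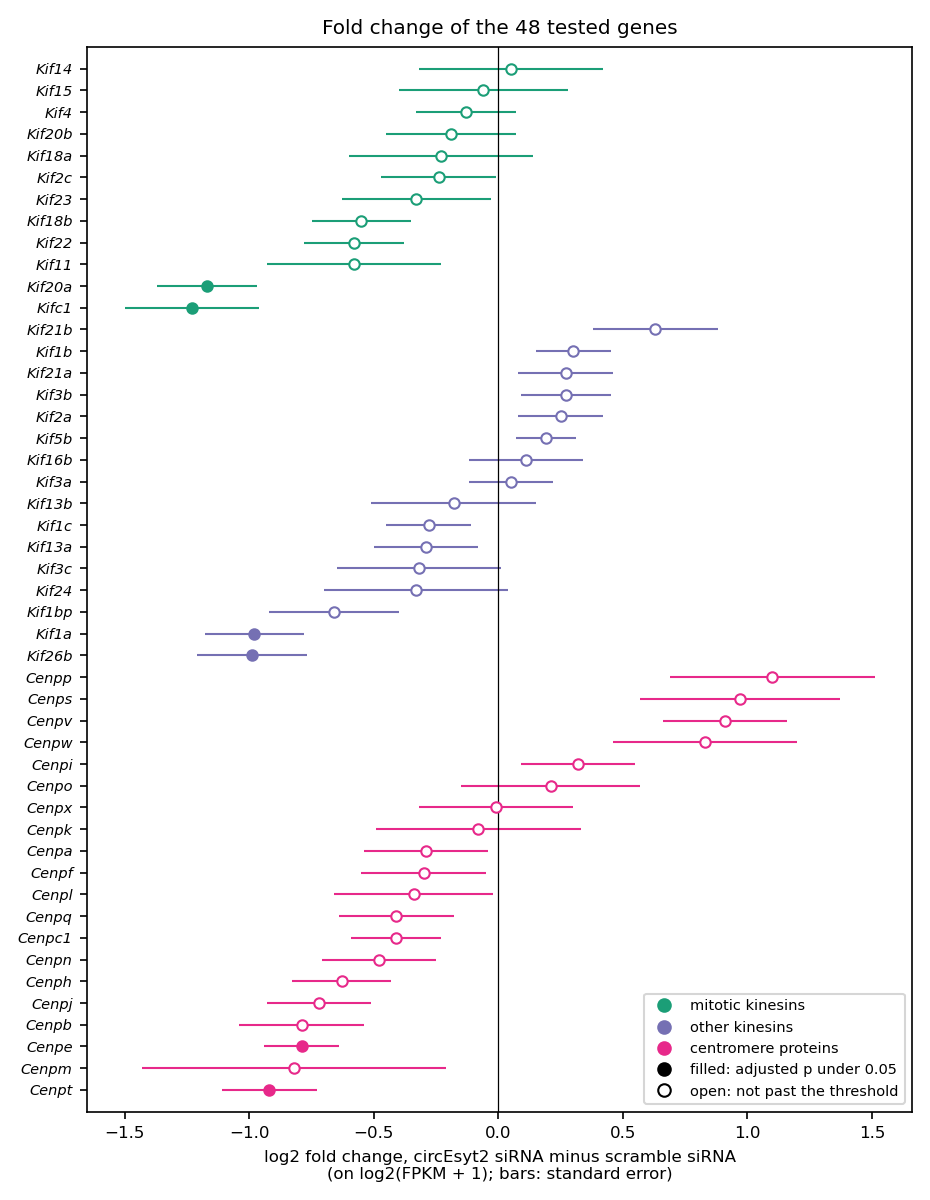
Log2 fold change (circEsyt2 siRNA minus scramble siRNA, on log2(FPKM + 1)) of the 48 tested genes, ordered within each class; bars are standard errors and filled points passed an adjusted p of 0.05 (limma, n = 2 libraries a group). The 6 filled points are all left of 0, and 11 of the 12 mitotic kinesins are left of 0 against 8 of 16 other kinesins.

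The 12 mitotic kinesins were all expressed and all tested. Their log2 fold changes ran from −1.23 to 0.05 with a median of −0.29, where the median over all tested genes was 0.00. Kifc1 and Kif20a fell, and 10 did not pass the test (7.26% of all tested genes were called lower). In 5 of the 12 the groups did not overlap with circEsyt2 siRNA lower (31.1% of all tested genes), and in 0 with it higher (29.7%). Relative to the scramble mean, the class median was −0.43 in the first circEsyt2 siRNA library and −0.25 in the second. Added up, mitotic kinesins measured 52.9 and 53.4 FPKM in the scramble libraries and 32.0 and 36.5 FPKM in the circEsyt2 siRNA libraries. Kif20a and Kifc1 carried part of this; the other 10 summed to 36.7 and 39.6 FPKM against 26.7 and 30.8 FPKM.

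Kif20a encodes a motor of the central spindle, needed at the end of division. By mean FPKM over all libraries it was the highest of the mitotic kinesin class, which leaves out Cenpe. Kif20a measured 11.9 and 9.41 FPKM with scramble siRNA and 3.64 and 4.72 FPKM with circEsyt2 siRNA. The groups did not overlap, and the mean was 2.55-fold lower (log2 fold change −1.17, SE 0.20, limma adjusted p = 0.0209, n = 2). Those values rest on 114 and 147 reads against 52 and 56 reads. The gene spans positions 34624613 to 34633277 of chromosome 18 (GRCm38, as all positions here), plus strand, and 29.3% of its annotated exon bases also belong to Cdc23 on the other strand. Reads there cannot be told apart without a strand setting. Cdc23, an anaphase-promoting complex subunit, measured 4.73 and 5.93 against 4.05 and 5.42 FPKM (log2 fold change −0.15, adjusted p = 0.684).

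Kifc1 encodes the minus-end motor that focuses spindle poles, the opposite direction of travel to most kinesins. It measured 4.19 and 4.41 FPKM with scramble siRNA and 1.63 and 0.937 FPKM with circEsyt2 siRNA. Again the groups did not overlap, and the mean was 3.35-fold lower (log2 fold change −1.23, SE 0.27, limma adjusted p = 0.0382, n = 2). The reads were 36 and 62 against 21 and 10, so it is one of the thinner calls. Kifc1 lies on chromosome 17 at 33875659 to 33890661, minus strand. It has a near-identical copy, Kifc5b, with which reads can be shared. Kifc5b was at 2.42 and 1.57 FPKM with scramble siRNA and 0.303 and 1.22 FPKM with circEsyt2 siRNA (log2 fold change −0.80, adjusted p = 0.247), again with no overlap.

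Among the kinesins that separate the spindle poles, Kif11 was at 6.18 and 6.91 FPKM with scramble siRNA and at 2.54 and 6.17 FPKM with circEsyt2 siRNA. Only the first circEsyt2 siRNA library, the one with the highest hepatocyte marker sum, was well below the scramble libraries, and the second lay just under them. The fold change did not pass the test (log2 fold change −0.58, SE 0.35, adjusted p = 0.312), and it was −0.07 without the first circEsyt2 siRNA library. Kif15, which can stand in for Kif11, was at 1.12 and 2.07 against 1.40 and 1.51 FPKM, and the groups overlapped.

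Of the kinesins that ride on chromosome arms, Kif22 was at 5.27 and 4.86 FPKM against 3.30 and 2.80 FPKM, with no overlap (log2 fold change −0.58, adjusted p = 0.114). Kif4 also works at the midzone and was at 4.68 and 6.08 against 4.82 and 4.81 FPKM. Its groups overlapped, and 15.1% of its exon bases are shared with Pdzd11 on the other strand. Of the kinesins that act on microtubule ends and align chromosomes, Kif18b was at 5.12 and 5.71 against 3.72 and 3.04 FPKM (log2 fold change −0.55, adjusted p = 0.126). Kif2c, a depolymerase at the centromere, was at 3.83 and 4.34 against 3.96 and 2.71 FPKM, and Kif18a ran from 0.716 to 1.43 FPKM over the 4 libraries. Kif22 and Kif18b thus had separate groups, while Kif4, Kif2c and Kif18a did not.

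The other cytokinesis motors did not pass the test. Kif23, a subunit of the centralspindlin complex, was at 2.11 and 3.07 FPKM against 1.45 and 2.27 FPKM, with overlap (log2 fold change −0.33, SE 0.30, adjusted p = 0.497). Kif20b was at 6.23 and 4.12 against 3.55 and 5.24 FPKM. Kif14 was at 1.15 and 1.03 against 0.846 and 1.54 FPKM and was the 1 mitotic kinesin with a positive fold change, 0.05. In all 3 the groups overlapped. Differences between these motors and Kif20a were not tested.

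**Figure D2:**
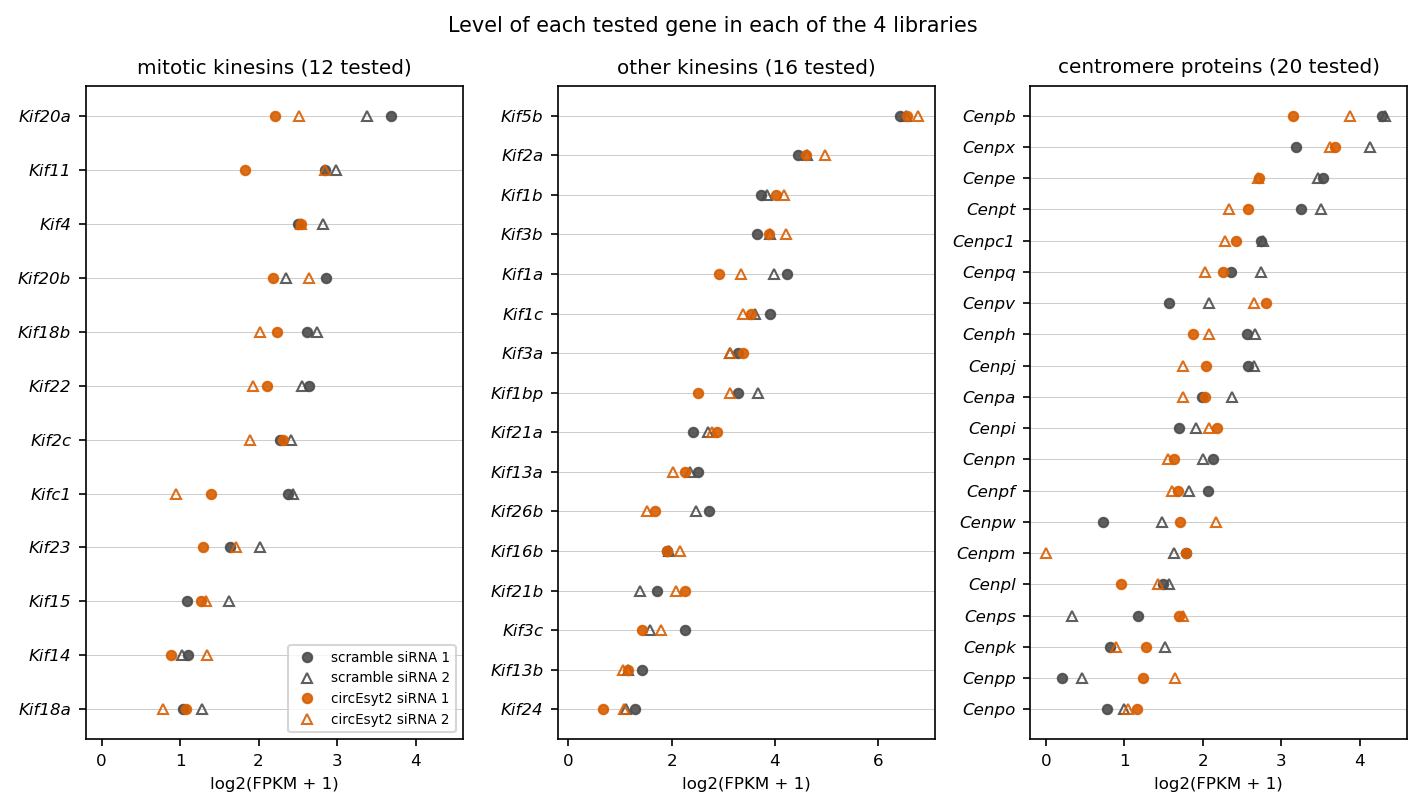
Level of each of the 48 tested genes in each library, as log2(FPKM + 1), ordered by mean FPKM within 3 classes; grey marks are scramble siRNA and orange marks circEsyt2 siRNA, circles replicate 1 and triangles replicate 2. Kif5b is the highest gene, at 85.5 to 109 FPKM, and Kif20a, Kifc1, Cenpe and Cenpt show orange marks left of both grey marks.

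Promoters of the mitotic kinesins shared a sequence element that was not used to choose them. The CHR element (cell cycle genes homology region, TTTGAA or TTTAAA) is bound by complexes that keep G2 and M phase genes off in resting cells and on in dividing cells, and the CCAAT box is bound by NF-Y and often lies next to it. RefSeq promoters (GRCm38.p6, 250 bases before to 50 after the start) were found for 53 of the 61 genes. Both strands were searched for these CHR letters and for CCAAT, and elements were allowed to overlap. The form TTTAAA is its own reverse complement. TTTGAA was found in 10 of 11 mitotic kinesins, 3 of 21 other kinesins and 5 of 21 centromere proteins, against 20.2% of all 27025 genes in the table. Either CHR form was found in 10, 3 and 8 of these genes, against 30.6% of all genes. CHR and CCAAT together were found in 7, 2 and 7 of these genes, against 12.2% of all genes. A match is a description of letters, not evidence of binding. The windows below show the TTTGAA nearest to the start in the 10 mitotic kinesins that hold it, read along the gene's strand, with the element in capitals (TTCAAA where it lies on the other strand):
Kif11 (chr19:37376346-37376385, plus strand): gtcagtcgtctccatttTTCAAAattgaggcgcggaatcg
Kif15 (chr9:122951045-122951084, plus strand): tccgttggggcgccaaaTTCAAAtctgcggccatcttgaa
Kif4 (chrX:100626067-100626106, plus strand): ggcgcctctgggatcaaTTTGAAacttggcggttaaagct
Kif22 (chr7:127042415-127042454, minus strand): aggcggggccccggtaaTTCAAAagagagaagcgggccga
Kif2c (chr4:117178853-117178892, minus strand): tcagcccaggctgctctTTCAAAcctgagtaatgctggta
Kif18b (chr11:102925099-102925138, minus strand): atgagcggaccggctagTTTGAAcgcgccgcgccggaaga
Kifc1 (chr17:33890610-33890649, minus strand): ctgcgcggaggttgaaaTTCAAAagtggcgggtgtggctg
Kif14 (chr1:136467603-136467642, plus strand): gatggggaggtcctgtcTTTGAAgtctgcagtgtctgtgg
Kif20b (chr19:34922348-34922387, plus strand): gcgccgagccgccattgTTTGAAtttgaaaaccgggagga
Kif23 (chr9:61946775-61946814, minus strand): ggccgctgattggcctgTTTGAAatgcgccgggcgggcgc
In 8 of these 10 windows the element begins within 20 bases of the start, at −19 in Kif11 and Kif15, −17 in Kif22, and 2 to 20 after the start in Kifc1, Kif23, Kif18b, Kif20b and Kif4. In Kif2c and Kif14 it lies farther upstream, at −103 and −228. Kif18a held none of the 3 elements in its window.

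Of the 5 called genes with an entry, Kifc1, Cenpe and Kif26b carry both kinds of element. The whole windows of Kifc1, a mitotic kinesin, and Cenpe, a centromere protein, are shown as 1 example of each class, with the letters of every CHR element and CCAAT box in capitals, in either orientation:
Kifc1 (chr17:33890584-33890883, minus strand): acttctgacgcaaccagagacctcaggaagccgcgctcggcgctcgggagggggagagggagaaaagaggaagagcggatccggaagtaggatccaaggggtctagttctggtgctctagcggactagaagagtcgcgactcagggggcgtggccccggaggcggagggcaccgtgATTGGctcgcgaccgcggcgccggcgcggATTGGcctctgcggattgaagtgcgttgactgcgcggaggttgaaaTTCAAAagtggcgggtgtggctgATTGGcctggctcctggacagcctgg
Cenpe (chr3:135212313-135212612, plus strand): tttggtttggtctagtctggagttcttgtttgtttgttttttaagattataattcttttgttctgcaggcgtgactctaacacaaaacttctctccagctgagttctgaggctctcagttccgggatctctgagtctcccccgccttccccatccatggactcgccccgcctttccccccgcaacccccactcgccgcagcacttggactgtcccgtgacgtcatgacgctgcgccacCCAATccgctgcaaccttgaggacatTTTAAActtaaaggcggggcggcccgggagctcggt
Kifc1 has CCAAT boxes at −74, −45 and 25 and a CHR element at 2. Cenpe has a CCAAT box at −12 and TTTAAA at 15. Of the other called genes, Cenpt holds TTTAAA only far upstream, at −232 and −205, within runs of A and T, Kif26b holds TTTGAA at −9 and a CCAAT box at −73, and Kif1a holds it at −44 in 1 of its 2 listed promoters. Kif20a, Kif5a, Kif5b, Kif13b, Kif19a, Kif1bp, Kif21b and Kif28 had no matching entry. Among tested members with an entry, the 20 with a CHR element had a median log2 fold change of −0.38 with 5 called lower, and the 23 without one had a median of −0.01 with 0 called, where 7.26% of all tested genes were called lower. Fold changes were negative in 18 of the 20 and in 12 of the 23, against 49.8% of all tested genes. Kif20a, called lower, has no entry and is in neither count. The 5 called include Cenpt and Kif1a, with the placements given above. Fold changes of other genes with a CHR element were not compared. Since the class of a gene and its elements go together, these medians do not separate the element from the class.

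The 21 centromere proteins were listed at levels up to 18.9 FPKM, and 20 passed the filter. Cenpe and Cenpt fell, 0 rose and 18 did not pass the test. The share called was 10.0%, against 12.7% of all tested genes (7.26% lower and 5.47% higher). The class ran from −0.92 to 1.10 with a median of −0.32. In 10 of the 20 the groups did not overlap with circEsyt2 siRNA lower (31.1% of all tested genes), and in 6 with it higher (29.7%). Of those 6, Cenpp, Cenps and Cenpo had a scramble mean under 1 FPKM. They passed the filter through the circEsyt2 siRNA libraries, so nothing is read from that count. The rest of it, Cenpi, Cenpw and Cenpv, had scramble means of 2.51, 1.22 and 2.6 FPKM.

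Cenpe encodes the kinetochore kinesin that carries chromosomes to the spindle equator, a kinesin by family although its symbol is Cenp. It was at 10.5 and 10.1 FPKM with scramble siRNA and 5.55 and 5.49 FPKM with circEsyt2 siRNA. Replicates lay close together and the groups were well apart (1.86-fold lower by mean FPKM, log2 fold change −0.79, SE 0.15, limma adjusted p = 0.0277, n = 2). These levels rest on 227 and 358 against 180 and 148 reads, over 8620 bases. Cenpe lies on chromosome 3 at 135212537 to 135273611, plus strand. Cenpf, a large protein of the same fibrous corona, was at 3.19 and 2.53 against 2.22 and 2.05 FPKM, with no overlap and no call (log2 fold change −0.30, SE 0.25, adjusted p = 0.462).

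Cenpt encodes an inner kinetochore protein that links centromeric DNA to the microtubule-binding NDC80 complex. It was at 8.50 and 10.3 FPKM with scramble siRNA and 4.95 and 4.03 FPKM with circEsyt2 siRNA. The groups did not overlap (2.09-fold lower by mean FPKM, log2 fold change −0.92, SE 0.19, limma adjusted p = 0.0326, n = 2). Read numbers were 78 and 154 against 68 and 46, and the gene lies on chromosome 8 at 105844673 to 105853278, minus strand. Its partners in the histone-fold complex, Cenpw, Cenps and Cenpx, did not pass the test. Cenpw was at 0.661 and 1.79 FPKM against 2.27 and 3.49 FPKM (log2 fold change 0.83, adjusted p = 0.196), and Cenps at 1.25 and 0.254 against 2.23 and 2.35 FPKM (log2 fold change 0.97, SE 0.40, adjusted p = 0.170). Both had every circEsyt2 siRNA value above every scramble value, on 2 to 46 reads a library. Cenps passed the filter through the circEsyt2 siRNA libraries, at a scramble mean of 0.752 FPKM. Cenpx was at 8.12 and 16.5 against 11.8 and 11.3 FPKM, the scramble libraries enclosing the others (log2 fold change −0.01, SE 0.31, adjusted p = 0.989).

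The centromeric histone Cenpa was at 2.98 and 4.15 FPKM with scramble siRNA and 3.08 and 2.35 FPKM with circEsyt2 siRNA, and the groups overlapped (log2 fold change −0.29, SE 0.25, adjusted p = 0.477). Cenpb, which binds a DNA motif in centromeric repeats, was the most abundant of the class, at 18.5 and 18.9 against 7.88 and 13.6 FPKM. The groups were apart but the circEsyt2 siRNA libraries differed widely from each other, and the test was not passed (log2 fold change −0.79, SE 0.25, adjusted p = 0.0936). Without circEsyt2 siRNA replicate 1 its log2 fold change was −0.43. With voom on read numbers, and with a filter at 5 FPKM, Cenpb was called lower.

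The inner kinetochore network, with 15 listed and 14 tested genes including Cenpt, had a median of −0.21. Cenpc1, the protein that bridges CENP-A nucleosomes to the outer kinetochore, was at 5.71 and 5.78 against 4.34 and 3.86 FPKM (adjusted p = 0.193). Cenph was at 4.90 and 5.31 against 2.68 and 3.23 FPKM (adjusted p = 0.0971), on 18 to 39 reads. Cenpn and Cenpq also had circEsyt2 siRNA below scramble siRNA in all pairs, at log2 fold changes of −0.48 and −0.41, and so did Cenpl at −0.34. In the other direction, Cenpi was at 2.24 and 2.78 against 3.55 and 3.21 FPKM, and Cenpo, at 0.711 to 1.24 FPKM, shares 19.0% of its exon bases with Adcy3. None of these passed the test.

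Cenpp had the largest positive fold change of all members, 1.10 (SE 0.41, adjusted p = 0.134). It was at 0.155 and 0.379 FPKM with scramble siRNA and 1.35 and 2.12 FPKM with circEsyt2 siRNA, on 1 and 4 against 13 and 17 reads. Cenpp passed the filter through the circEsyt2 siRNA libraries, at a scramble mean of 0.267 FPKM, so nothing is read from its place as the largest. Its exons share 12.3% of their bases with Ippk. Cenpm was at 2.46 and 2.10 against 2.46 and 0 FPKM; the 0 rests on 0 reads and allows up to 0.593 FPKM at a floor of 3 reads. Cenpk was at 0.760 to 1.86 FPKM with overlapping groups, and Cenpu, at 0.298 to 1.20 FPKM, was not tested.

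The remaining Cenp genes, Cenpj and Cenpv, also had separate groups without a call. Cenpj, which controls centriole length, was at 4.97 and 5.28 FPKM against 3.11 and 2.36 FPKM (log2 fold change −0.72, adjusted p = 0.0797). Cenpv was at 1.97 and 3.22 against 6.01 and 5.30 FPKM (log2 fold change 0.91, adjusted p = 0.0656). They lay on opposite sides, Cenpj lower and Cenpv higher with circEsyt2 siRNA in every pair of libraries.

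**Figure D3:**
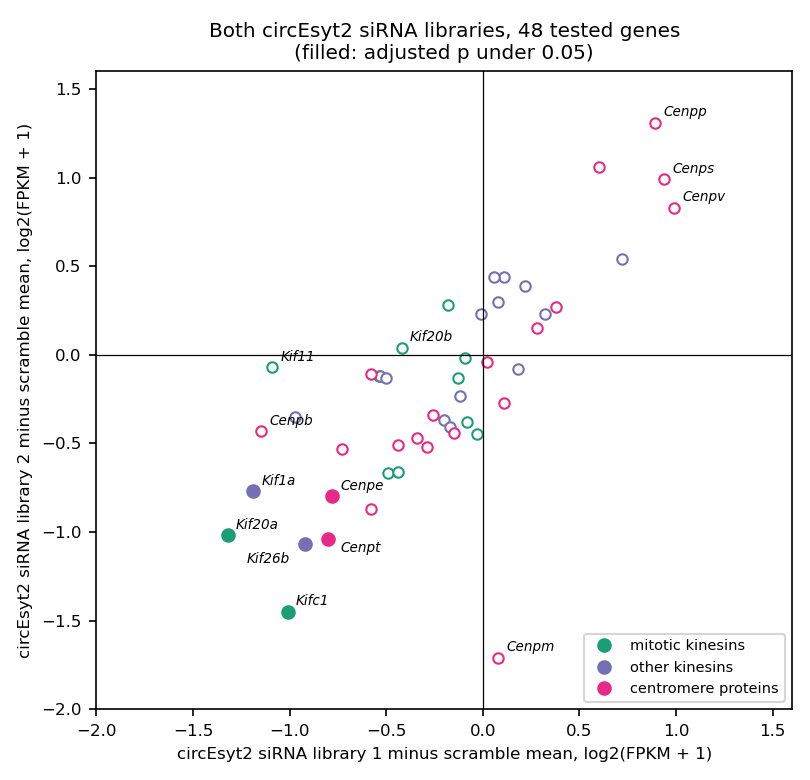
Difference of each circEsyt2 siRNA library from the scramble mean, on log2(FPKM + 1), library 1 on the horizontal and library 2 on the vertical axis, for the 48 tested genes; both axes share the same scramble mean. Both differences are negative in 29 genes and positive in 12, and the 6 filled points (adjusted p under 0.05) lie between −0.77 and −1.45 on both axes.

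The 6 called genes were lower in both circEsyt2 siRNA libraries. In the first library they lay between −0.78 (Cenpe) and −1.32 (Kif20a) relative to the scramble mean. In the second library, where the hepatocyte sum was 89.0 FPKM, they lay between −0.77 (Kif1a) and −1.45 (Kifc1). With a library left out, 1 group holds a single library, and its spread is taken to be that of the other group. When either scramble library was left out, limma with adjustment called 0 genes in the whole table; 1959 genes without replicate 1, and 2231 without replicate 2, had an unadjusted p below 0.05. The log2 fold changes were then −1.01 and −1.33 for Kif20a, −1.26 and −1.20 for Kifc1, −0.77 and −0.81 for Cenpe, −1.04 and −0.80 for Cenpt, −0.85 and −1.11 for Kif1a, and −0.87 and −1.12 for Kif26b. All 6 kept their direction, which leaving out 1 library could not reverse, since their groups did not overlap. Without circEsyt2 siRNA replicate 2 it called 0 members, and without circEsyt2 siRNA replicate 1 it called Kifc1 and Cenpm. Cenpm had 0 reads in the circEsyt2 siRNA library that stayed, and 15 in the one left out. Its call rests on that 0. Fitting eBayes without a trend called 0 members and 577 genes, and with the replicate block Kif20a was the 1 member called.

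The 28 other kinesins were dominated by a few transport motors. Only 16 passed the filter, with log2 fold changes from −0.99 to 0.63 and a median of −0.06. Kif1a and Kif26b fell, 0 rose and 14 did not pass the test. The share called was 12.5%, near the 12.7% of all tested genes (7.26% lower and 5.47% higher). Fold changes were negative in 8 and positive in 8. Groups did not overlap in 6 with circEsyt2 siRNA lower and in 4 with it higher. Those shares were 37.5% and 25.0%, against 31.1% and 29.7% of all tested genes. Of the 6, Kif24 had a circEsyt2 siRNA mean of 0.857 FPKM and passed the filter through the scramble libraries. Summed over kinesins outside the mitotic class, and leaving out Kif1bp, which encodes a kinesin-binding protein and not a kinesin, the level was 201 and 204 against 199 and 227 FPKM.

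Kif5b, the ubiquitous conventional kinesin heavy chain, was at 85.5 and 91.7 FPKM with scramble siRNA and 93.9 and 109 FPKM with circEsyt2 siRNA. It made up 33.7% and 35.5% of the summed FPKM of 39 kinesin genes in the scramble libraries, and 40.6% and 41.6% with circEsyt2 siRNA. That sum leaves out Cenpe, Kifc2, Kifc3 and Kifc5b, which are also kinesins. The difference in Kif5b itself was small and did not pass the test (log2 fold change 0.19, SE 0.12, adjusted p = 0.332). The share of the mitotic kinesins in the same sum was 20.8% and 20.7% against 13.8% and 13.9%, so the replicates of each group lay close together. Kif5a and Kif5c, the heavy chains best known from neurons, were left out by the filter. Kif5c was at 1.06 and 1.12 against 0.558 and 0.537 FPKM, on 19 and 33 against 15 and 12 reads, and Kif5a at 0.625 and 0.660 against 0.418 and 0.457 FPKM. In both the circEsyt2 siRNA libraries lay under the scramble libraries, a pattern found in 31.1% of all tested genes.

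**Figure D4:**
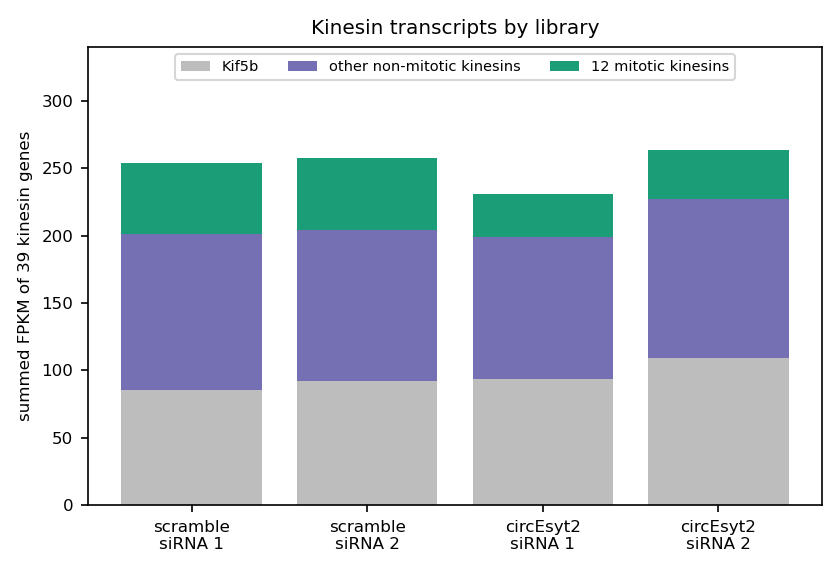
Summed FPKM of 39 kinesin genes in each library, split into Kif5b (grey), the other non-mitotic kinesins (purple) and the 12 mitotic kinesins (green); single libraries, with no error bars. The green part measures 52.9 and 53.4 FPKM with scramble siRNA and 32.0 and 36.5 FPKM with circEsyt2 siRNA.

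Kif1a, best known as the motor of synaptic vesicle precursors, was at 17.8 and 14.8 FPKM in the scramble libraries. The circEsyt2 siRNA libraries had 6.55 and 9.12 FPKM. The groups did not overlap (2.08-fold lower by mean FPKM, log2 fold change −0.98, SE 0.20, limma adjusted p = 0.0321, n = 2), on 418 and 568 against 230 and 266 reads. Kif1a lies on chromosome 1 at 93015464 to 93101951, minus strand. Its relatives did not pass the test. Kif1b was at 12.3 and 13.5 against 15.2 and 17.1 FPKM, higher in every pair (log2 fold change 0.30, SE 0.15, adjusted p = 0.222), and Kif1c at 14.0 and 11.2 against 10.7 and 9.49 FPKM (adjusted p = 0.318). Neuronal markers were low, with 4 markers summing to 2.83 and 6.79 FPKM against 5.64 and 12 FPKM.

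Kif26b belongs to a kinesin family without motor activity that acts in cell polarity and adhesion. It was at 5.62 and 4.58 FPKM with scramble siRNA and 2.22 and 1.89 FPKM with circEsyt2 siRNA. The groups did not overlap (2.48-fold lower by mean FPKM, log2 fold change −0.99, SE 0.22, limma adjusted p = 0.0403, n = 2), on 208 and 277 against 123 and 87 reads over 14696 bases. Kif26b lies on chromosome 1 at 178529125 to 178939200, plus strand, and shares 909 exon bases with an antisense gene, Gm16564. Kif26a, its closest relative, was at 0 to 0.0924 FPKM and was not tested.

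None of the other vesicle motors passed the test. Kif13a was at 4.71 and 4.14 against 3.81 and 3.08 FPKM, Kif13b at 1.08 to 1.68 FPKM over all libraries, and the endosome motor Kif16b at 2.76 to 3.46 FPKM, with no call. Of the heterotrimeric kinesin that serves cilia and vesicles, Kif3a was at 7.76 to 9.48 FPKM and Kif3b at 11.6 and 13.9 against 13.8 and 17.6 FPKM, and their groups overlapped. Kif3c was at 1.69 to 3.81 FPKM, and 35.3% of its exon bases are shared with an antisense gene.

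Kif2a, a microtubule depolymerizer of interphase and spindle poles, was the second most abundant kinesin, at 20.9 and 23.6 against 23.2 and 30.5 FPKM (log2 fold change 0.25, SE 0.17, adjusted p = 0.370), with 19.2% of its exon bases shared with Dimt1. The growth-regulating kinesin Kif21a was at 4.36 and 5.55 against 6.40 and 5.93 FPKM, with separate groups and no call. Kif21b had the largest positive fold change among kinesins, at 2.28 and 1.61 against 3.81 and 3.25 FPKM (log2 fold change 0.63, SE 0.25, adjusted p = 0.163), and voom on read numbers called it higher. Kif1bp was at 8.77 and 11.8 against 4.72 and 7.78 FPKM (log2 fold change −0.66, adjusted p = 0.158), with 10.1% of its exon bases shared with an antisense gene.

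Kinesins of cilia and Hedgehog signalling were near the floor of the data. Of Kif6, Kif7, Kif9, Kif17, Kif19a, Kif24 and Kif27, only Kif24 was tested, at 1.44 and 1.18 against 0.597 and 1.12 FPKM (adjusted p = 0.589). The 13 untested members had mean levels of 0.0407 to 0.870 FPKM and at most 33 reads in a library. Of these 13, 7 were at 0 in at least 1 library, and Kif2b was at 0 in 3 of 4. They are Cenpu, Kif5a, Kif5c, Kif2b, Kif26a, Kif12, Kif28 and the 6 cilium and Hedgehog genes other than Kif24. They were left out by the filter, which does not show that they were alike between groups.

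Genes that work with these proteins were read from lists, against the same 12.7% called over all tested genes. Of the 10 outer kinetochore genes 9 were tested, with 0 lower, 1 higher and a median log2 fold change of 0.01. Zwint, which links the kinetochore to checkpoint proteins, rose from 50.7 and 61.7 FPKM to 91.2 and 98.7 FPKM (log2 fold change 0.75, SE 0.13, adjusted p = 0.0224), while Spc25 of the NDC80 complex was at 9.35 and 12.6 against 6.67 and 8.63 FPKM (adjusted p = 0.197). Genes that load CENP-A or join the centromere had 0 of 4 tested members called in limma (0 at an unadjusted p under 0.05) and a median of −0.22. Of these, Oip5, a loading factor, was at 2.46 and 2.73 against 2.39 and 1.80 FPKM (adjusted p = 0.597).

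Of the 10 chromosomal passenger and spindle checkpoint genes 1 was lower and 0 higher, with a median of −0.32. Aurkb, the kinase of the passenger complex, fell from 7.42 and 7.75 FPKM to 3.07 and 2.39 FPKM (log2 fold change −1.21, SE 0.19, adjusted p = 0.0173), and its scaffold Incenp was at 8.40 and 7.85 against 6.11 and 4.57 FPKM (adjusted p = 0.125). Of 14 spindle and midzone genes 1 was lower and 0 higher, with a median of −0.25. Cdc20, which activates the anaphase-promoting complex, fell from 20.2 and 22.9 FPKM to 11.4 and 11.5 FPKM (log2 fold change −0.86, adjusted p = 0.0176), and Racgap1, the centralspindlin partner of Kif23, was at 6.34 and 7.93 against 4.61 and 4.38 FPKM (adjusted p = 0.107). Of 8 proliferation markers 2 were lower and 0 higher, with a median of −0.31. These were Mki67, at 15.2 and 12.9 against 6.89 and 6.55 FPKM (log2 fold change −0.96, adjusted p = 0.0185), and the topoisomerase Top2a, at 15.7 and 17 against 9.87 and 10.6 FPKM (log2 fold change −0.62, adjusted p = 0.0423). The medians of the checkpoint, spindle and proliferation lists lay near those of the mitotic kinesins and centromere proteins, and that of the outer kinetochore list near 0. Differences between these lists were not tested.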

How the data were processed

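RNA was measured in 2 scramble siRNA and 2 circEsyt2 siRNA libraries, in paired-end runs of 150 bp per the series' design text. The authors deposited FPKM, 1 file per library. Trimmomatic, HISAT2, featureCounts, GRCm38 and mm10 are named in the submitters' processing notes. Tool versions, settings, strand use and annotation were not given in the sources used. Groups came from sample titles.

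Read numbers were recovered from the digits of the FPKM values with exon lengths of GENCODE mouse release M21, which gave whole numbers within 0.0001 for 96.4% of the 20745 genes above 0. For the other 748 genes the smallest fitting length was used, Kif11 and Kif20a among them, so their read numbers are minimum numbers. A single read over 1 kb equals 0.243 to 0.397 FPKM, depending on the library. Low read numbers were mostly even, and whether the mates of a pair were counted separately is not stated. A read number may therefore stand for fewer independent molecules, and floors cover counting error only.

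The test was limma 3.58.1 in R 4.3.3 (eBayes with a trend, two-sided) on log2(FPKM + 1), which understates changes of low genes, for the 11290 genes with a mean of at least 1 FPKM; p was adjusted over all of them at a threshold of 0.05. The steps were tested on simulated data: there, limma on this scale missed most of the smaller differences and called more unchanged genes than the threshold implies, while voom on read numbers missed fewer and made fewer such calls. Pearson r across genes was 0.972 between scramble and 0.931 between circEsyt2 siRNA replicates. Alternatives were other scalings, pseudocounts, filters and variance models, the replicate block, voom on read numbers, and leaving out each library. Full statistics were given for called members, the 3 highest and the 2 with the largest fold change in each class, and 5 genes named by role; others are given for their role. Of each list of related genes, the 2 with the smallest p are named, except 1 gene that is not reported here. Members and lists were chosen with earlier results of these data known.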

Additional observations from a re-analysis of the deposited data

How the results depend on the processing

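With 2 libraries a group and 2516428 to 4116791 assigned reads, single calls depend on the variance model and on the number of libraries. Against 1437 genes called over the whole table, and 2 mitotic kinesins, 2 other kinesins and 2 centromere proteins, eBayes without a trend called 577, 0, 0 and 0. The filter at a mean of 5 FPKM called 1 of 3 mitotic kinesins, 1 of 9 other kinesins and 3 of 4 centromere proteins tested (1764 genes in all); Kifc1 and Kif26b were below it. Its medians were −0.58 for mitotic kinesins, 0.19 for other kinesins and −0.79 for centromere proteins, over fewer genes. No filter on low values called 1 mitotic kinesin, 1 other kinesin and 0 centromere proteins. The replicate block called 1 mitotic kinesin, 0 other kinesins and 0 centromere proteins (1008 genes in all). Deviations of same-numbered libraries from their group means were nearly uncorrelated across genes (Pearson r = −0.0507). The labels do not say what a replicate number shares, and this value cannot settle it. Voom on read numbers gave medians of −0.53 for mitotic kinesins and −0.45 for centromere proteins, and a pseudocount of 0.1 gave −0.45 for mitotic kinesins. Leaving out each library gave 0 to 1027 genes, 0 to 1 mitotic kinesins, 0 other kinesins in each fit and 0 to 1 centromere proteins. The medians then ran from −0.44 to −0.25 for mitotic kinesins, from −0.17 to 0.10 for other kinesins and from −0.43 to −0.26 for centromere proteins. The direction of the 6 called members was the same in every alternative that tested them. Since their groups did not overlap, leaving out 1 library could not reverse it. Nor could another pseudocount, filter or variance model. Leaving out each library moved Cenpx between −0.48 and 0.46 and Kif4 between −0.28 and 0.03. Uncalled values also moved by over 1.5 times. At their smallest, Cenpb was −0.43, Cenps 0.55, Cenpa −0.11, Cenpf −0.17, Kif23 −0.12, Kif11 −0.07, Kif2a 0.06 and Kif5b 0.08. At their largest, Cenpp was 2.36, Cenps 2.05, Kif11 −1.09, Kif23 −0.58, Cenpa −0.48, Kif2a 0.44 and Kif5b 0.30. Cenpx turned to 0.01 with median-ratio scaling and with quantile normalization, to 0.46 without scramble replicate 2 and to 0.02 without circEsyt2 siRNA replicate 2, and Kif4 turned to 0.03 without scramble replicate 2. Where construction does not show it, the cause was not tested.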

Other observations

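Microtubule transport toward the minus end is the task of cytoplasmic dynein and its activator dynactin. Of 17 listed genes 15 were tested, with 3 lower and 0 higher with circEsyt2 siRNA (limma, 7.26% of all tested genes lower) and a median log2 fold change of −0.10. The light chain Dynlrb1 fell from 127 and 112 FPKM to 52.6 and 54.5 FPKM (log2 fold change −1.14, adjusted p = 0.00508). The light intermediate chain Dync1li2 fell from 25.1 and 27.0 FPKM to 10.4 and 12.3 FPKM (log2 fold change −1.14, adjusted p = 0.00966), and Dynlt3 from 75.6 and 74.4 FPKM to 47.8 and 47.5 FPKM (log2 fold change −0.64, adjusted p = 0.0176). Of 16 kinesin light chains, partners and cargo adaptors 9 were tested, with 1 lower, 0 higher and a median of 0.22. The dynein adaptor Bicd2 fell from 17.4 and 17.2 FPKM to 9.59 and 9.42 FPKM (log2 fold change −0.80, adjusted p = 0.0194), and Kifap3, the accessory subunit of the Kif3 motor, was at 18.2 and 17.6 against 12 and 15.0 FPKM (adjusted p = 0.161).

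Of 17 transcription regulators of the cell cycle 16 were tested, with 1 lower (7.26% of all tested genes), 0 higher (5.47%) and a median of −0.03. Rbl1, the p107 pocket protein, fell from 4.51 and 4.94 FPKM to 1.55 and 2.19 FPKM (log2 fold change −1.0, adjusted p = 0.0458). E2f3 was at 8.34 and 8.46 against 13.5 and 12.3 FPKM (log2 fold change 0.56, adjusted p = 0.0587).

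Low read numbers were mostly even. Among genes with 1 to 20 reads, an even number was found for 66.7% and 62.0% with scramble siRNA and for 72.1% and 74.9% with circEsyt2 siRNA, whereas above 100 reads the shares were 49.4% to 52.0%. The cause of this excess was not tested.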
